A study of Homo sapiens with 2 samples.

Results

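The zinc finger genes of distal chromosome 19q were taken as the RefSeq protein-coding genes whose symbols start with ZNF, ZSCAN or ZFP and whose spans start at or above position 51500000 of chromosome 19 (hg38, the build named by the submitters). The rule found 109 of the table's 19974 protein-coding genes (autosomes and X). It also takes in ZNF470-DT and the readthrough genes ZNF816-ZNF321P and ZNF765-ZNF761, because the table lists them as protein-coding. Chromatin immunoprecipitation followed by sequencing had been run on FaDu, an established head and neck cancer cell line, with 1 library from cells in normoxia and 1 from cells held for 18 h in 1% oxygen. Sample labels name the target as H4K5ac, histone H4 acetylated at lysine 5, whereas the series design text names another histone mark, and the culture protocol mentions a knockdown of METTL4 that no label assigns to either library. Both libraries share the same cell line and culture medium and were read as 75 bp single ends. With 1 library per condition there is no replicate check, so every difference below compares these 2 libraries and no p-value is given.

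Most of these genes encode KRAB zinc finger proteins, which bind DNA through long arrays of C2H2 fingers and repress transposable elements by recruiting TRIM28 and the histone methyltransferase SETDB1. They arose by repeated local duplication, lie side by side in clusters, and usually carry all their fingers in the last coding exon. Their bodies are known for heterochromatin over that finger exon, to which the zinc finger protein ZNF274 recruits SETDB1, while their starts are often open CpG-rich promoters. H4K5ac is a mark of active chromatin.

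The following start windows show the range of H4K5ac found at members. Each is the 300 bases from 250 before to 50 after a start listed by RefSeq (GRCh38.p14), printed 5′ to 3′ on the strand of the gene, with CpG dinucleotides in capitals. ZNF419 (chr19:57487500-57487799, plus strand) had the highest hypoxia fold of all members and a peak in both lists. ZNF577 (chr19:51887902-51888201, minus strand) had a weak normoxia peak and the highest ratio of hypoxia to normoxia reads. ZNF583 (chr19:56404082-56404381, plus strand) and ZSCAN18 (chr19:58118355-58118654, minus strand) had a peak in the hypoxia list only. ZNF135 (chr19:58058989-58059288, plus strand) and ZSCAN1 (chr19:58033775-58034074, plus strand) had no peak in either list.
ZNF419: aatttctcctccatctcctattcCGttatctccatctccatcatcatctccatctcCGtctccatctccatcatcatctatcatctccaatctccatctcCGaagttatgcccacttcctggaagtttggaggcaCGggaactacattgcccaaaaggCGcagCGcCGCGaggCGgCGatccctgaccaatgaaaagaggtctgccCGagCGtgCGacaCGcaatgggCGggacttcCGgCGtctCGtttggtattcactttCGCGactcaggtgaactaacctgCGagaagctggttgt
ZNF577: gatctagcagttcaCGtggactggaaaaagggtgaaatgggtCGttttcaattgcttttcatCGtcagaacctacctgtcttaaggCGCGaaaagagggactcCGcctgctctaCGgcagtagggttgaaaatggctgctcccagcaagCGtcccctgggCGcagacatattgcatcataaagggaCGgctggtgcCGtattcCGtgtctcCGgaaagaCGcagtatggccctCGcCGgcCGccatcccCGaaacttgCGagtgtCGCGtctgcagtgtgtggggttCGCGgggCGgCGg
ZNF583: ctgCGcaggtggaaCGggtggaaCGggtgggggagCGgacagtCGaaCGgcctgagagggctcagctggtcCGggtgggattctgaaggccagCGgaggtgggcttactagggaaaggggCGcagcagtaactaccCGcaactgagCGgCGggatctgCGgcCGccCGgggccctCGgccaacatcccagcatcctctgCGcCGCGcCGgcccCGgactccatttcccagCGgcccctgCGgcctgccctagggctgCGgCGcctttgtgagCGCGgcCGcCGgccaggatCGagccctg
ZSCAN18: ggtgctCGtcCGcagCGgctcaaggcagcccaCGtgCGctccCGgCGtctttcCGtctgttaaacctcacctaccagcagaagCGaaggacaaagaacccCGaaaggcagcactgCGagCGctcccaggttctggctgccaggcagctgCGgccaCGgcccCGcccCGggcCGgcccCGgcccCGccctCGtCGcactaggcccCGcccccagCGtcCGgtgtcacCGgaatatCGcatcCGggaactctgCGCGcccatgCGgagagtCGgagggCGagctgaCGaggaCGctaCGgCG
ZNF135: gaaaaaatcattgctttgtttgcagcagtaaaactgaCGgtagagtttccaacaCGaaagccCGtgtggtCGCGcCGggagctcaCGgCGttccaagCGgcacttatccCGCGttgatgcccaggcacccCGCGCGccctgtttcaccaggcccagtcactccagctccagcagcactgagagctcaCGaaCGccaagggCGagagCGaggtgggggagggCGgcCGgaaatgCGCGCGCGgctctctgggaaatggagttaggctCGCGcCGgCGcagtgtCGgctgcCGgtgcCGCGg
ZSCAN1: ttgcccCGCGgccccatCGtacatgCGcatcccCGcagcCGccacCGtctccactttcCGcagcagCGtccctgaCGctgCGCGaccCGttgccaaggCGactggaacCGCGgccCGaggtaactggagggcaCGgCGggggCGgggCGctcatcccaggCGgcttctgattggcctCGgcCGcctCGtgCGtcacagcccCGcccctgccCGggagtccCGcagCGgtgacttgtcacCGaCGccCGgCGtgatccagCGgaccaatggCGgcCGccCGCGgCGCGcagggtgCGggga
ZNF419 held 21 CpG, ZNF577 25, ZNF583 30, ZSCAN18 36, ZNF135 32 and ZSCAN1 42. These windows are examples, and their order does not hold over all members. ZNF865, marked in both lists, held 40 CpG, and ZSCAN4, with no peak at its listed start, held 2. Medians of member windows were 23 with a peak in both lists, 27 in hypoxia only and 25 in neither.

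The normoxia list held 120033 peaks and the hypoxia list 258195, of which 29967 and 48782 were strong, here meaning a −log10 q-value of at least 10. Read totals are not stated by the labels or the lists. The fold of a peak is the authors' value over its own library's background, so folds rank peaks within a list and are not a measure of change between lists. Reads at a peak summit (the pileup) were recovered from the deposited fold and p-value. The lowest background was 3.13 reads in normoxia and 3.24 in hypoxia. Cell type markers were counted by peaks within 1000 bp of either end of the gene span, so starts further inside a span were not covered. Over all protein-coding genes, 69.3% had such a gene-end peak in both lists, 11.7% in hypoxia only and 17.9% in neither. Of 8 squamous epithelial markers, 7 had a gene-end peak in both lists and TP63 had one in hypoxia only. Among immune markers, CD14 had a peak in both lists, CD3E in hypoxia only and PTPRC in neither. Both endothelial markers had one in hypoxia only. Of 4 fibroblast markers, COL1A1 and COL1A2 were marked in both lists, PDGFRB in hypoxia only and DCN in neither. Intervals below are exact 95% binomial (Clopper-Pearson) intervals and cover counting error only.

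Most members had gene-end H4K5ac in both libraries, and each of the others that had a gene-end peak had it in hypoxia alone. A gene was counted as marked when a peak fell within 1000 bp of either end of its span, so overlapping neighbours can share a peak. Of the 109 members, 73 (67.0%; 57.3 to 75.7%) were marked in both lists, against 69.3% of all protein-coding genes. Hypoxia alone marked 24 members (22.0%; 14.6 to 31.0%), against 11.7% of all genes. No member was marked in normoxia alone (0%; 0 to 3.33%), against 1.08% of all genes. Neither list marked 12 members (11.0%; 5.82 to 18.4%), against 17.9% of all genes. The interval of the hypoxia-only share lies above the share over all genes, and the intervals of the other 3 states include theirs.

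Counting by listed starts of transcription gave the same order. RefSeq start windows were at hand for 95 members, with 119 starts in all, and the 14 without an entry were ZFP28, ZNF211, ZNF28, ZNF417, ZNF471, ZNF480, ZNF524, ZNF552, ZNF600, ZNF610, ZNF649, ZNF665, ZNF888 and ZSCAN5C. A peak lay within 1000 bp of a listed start in both lists for 72 of the 95 (75.8%; 65.9 to 84.0%), against 71.7% of the 15813 genes with a listed start. Hypoxia alone had such a peak for 16 (16.8%; 9.94 to 25.9%), against 9.68% of all genes. Normoxia alone had it for 0 (0 to 3.81%), against 0.753%, and neither list for 7 (7.37%; 3.01 to 14.6%), against 17.9%.

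Zinc finger genes elsewhere on chromosome 19 had a similar make-up at their starts. Of 133 such genes, 76.7% were marked in both lists, 13.5% in hypoxia only (8.22 to 20.5%) and 9.77% in neither. That interval overlaps the interval of the members. Zinc finger genes of other chromosomes were marked in both lists for 87.3% of 245 genes and in hypoxia only for 7.35% (4.41 to 11.4%), an interval that also overlaps that of the members. The other genes of the same stretch were quite different in the share marked by neither list, at 40.2% of 102 genes, and had 44.1% in both lists and 13.7% in hypoxia only. At gene ends the hypoxia-only share of members (22.0%; 14.6 to 31.0%) lay above that of zinc finger genes of other chromosomes (8.64%; 5.72 to 12.4%), with intervals that do not overlap. It overlapped those of zinc finger genes elsewhere on chromosome 19 (16.3%; 10.9 to 23.2%) and of the other genes of the same stretch (19.4%; 13.0 to 27.3%). The hypoxia-only share was thus not shown to be particular to distal 19q on chromosome 19, nor to its zinc finger genes within the stretch.

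**Figure D1:**
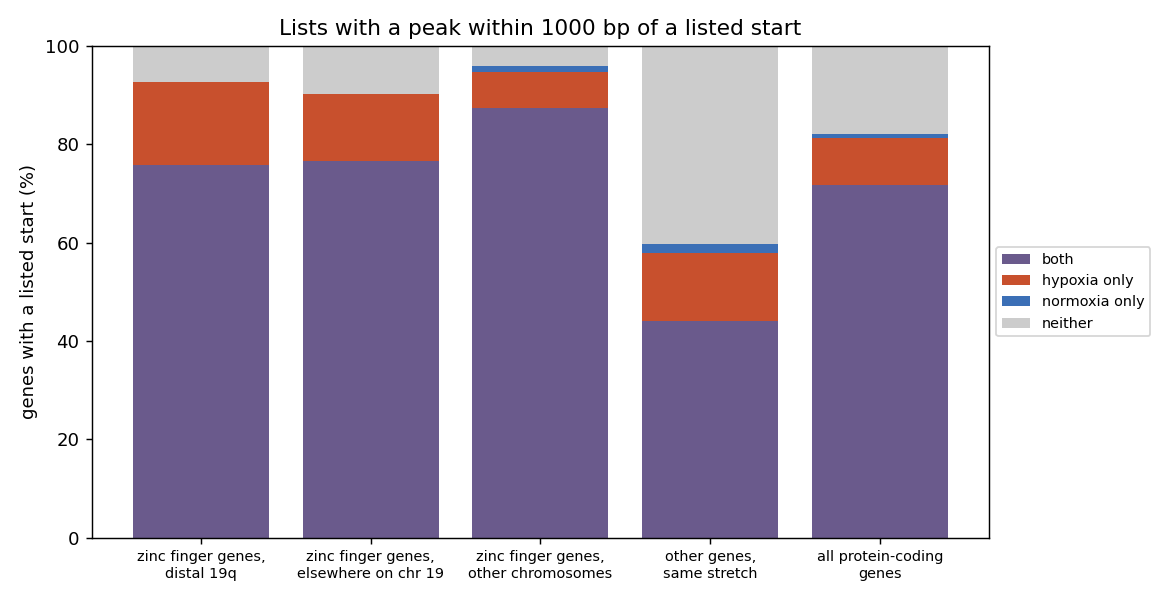
Stacked bars of the percentage of genes with a peak within 1000 bp of a listed start in both lists, in hypoxia only, in normoxia only or in neither, for 5 gene classes. The members (75.8% in both, 16.8% in hypoxia only) resemble zinc finger genes elsewhere on chromosome 19 (76.7% and 13.5%) more than the other genes of their own stretch (44.1% and 13.7%).

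Among span ends of members, H4K5ac was found more often at the 5′ end than at the 3′ end. Peaks at each span end were not counted over other genes, so this preference is not shown to be particular to members. Among the 95 members with a known strand, the 5′ span end was marked for 65 (68.4%; 58.1 to 77.6%) in normoxia and 81 (85.3%; 76.5 to 91.7%) in hypoxia. The 3′ span end was marked for 7 (7.37%) in normoxia and 17 (17.9%) in hypoxia. Strong peaks were found at 63 and 66 of the 5′ ends but at only 3 and 5 of the 3′ ends.

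Members marked at a start in both lists mostly carried strong peaks there, taking the peak of highest fold per member and list. The same values were not summarised over the other genes marked in both lists. In normoxia the fold of the 72 start peaks ran from 3.35 through a median of 8.04 to 13.0, and in hypoxia from 3.44 through 9.32 to 18.4. Strong peaks were present at 70 of these starts in normoxia and at all 72 in hypoxia. The 2 starts without a strong normoxia peak were those of ZNF577 (17 reads in normoxia, 41 in hypoxia) and ZNF587B (23 and 32 reads). The order of members was partly kept between lists, with a Spearman correlation of fold of 0.65 across the 72 members, which share their libraries and in some cases a peak.

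The highest gene-end folds in normoxia belonged to ZNF525 (13.0), ZNF480 (12.5), ZNF773 (12.3), ZNF419 (11.3) and ZNF549 (11.0). In hypoxia they belonged to ZNF419 (18.4), ZNF773 (18.1), ZNF480 (16.5), ZNF543 (15.8) and ZNF614 (14.8). ZNF419, known as a source of a minor histocompatibility antigen, had 73 reads at its start summit in normoxia and 121 in hypoxia. Its neighbour ZNF773 had 78 and 145 reads. ZNF480, ZNF773 and ZNF419 are thus among the top 5 of each list. ZNF525 had nearly equal folds, at 13.0 in both lists, with 83 and 105 reads. ZNF274, whose protein binds the finger exons of other zinc finger genes, had the most reads at a start among members, with 203 in normoxia and 334 in hypoxia, and folds of 10.1 and 12.4.

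**Figure D2:**
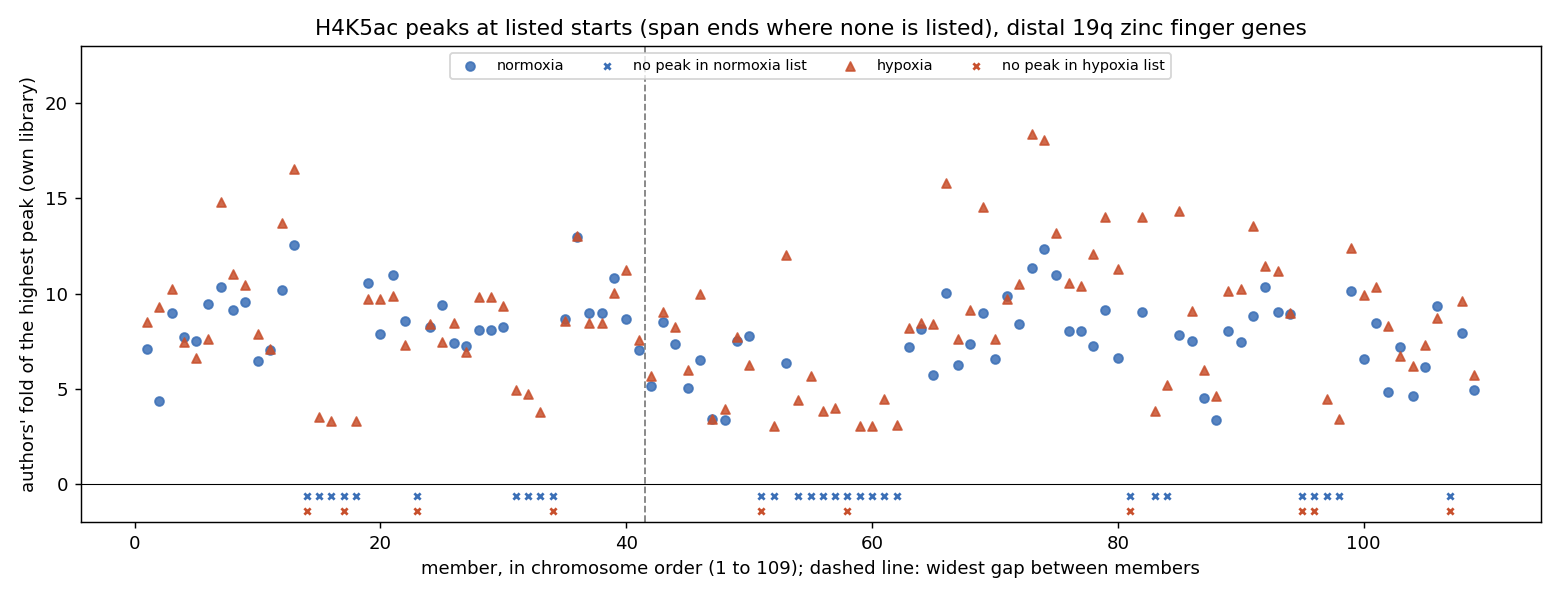
Authors' fold of the highest peak at a listed start (or at a span end for the 14 members without one) for the 109 members in chromosome order, with circles for normoxia, triangles for hypoxia and crosses below 0 for no peak. Members without a normoxia peak come in runs of neighbours, and their hypoxia peaks lie between 3.07 and 5.65, below most of the peaks of the other members.

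The 16 members with a start peak in hypoxia only were ZNF880, ZNF528, ZNF578, ZNF415, ZNF347, ZNF582, ZNF583, ZNF667, ZNF470-DT, ZNF470, ZNF71, ZNF835, ZNF154, ZNF671, ZSCAN18 and ZNF329. All of these peaks were low. Their folds ran from 3.07 through a median of 3.83 to 5.65 and their pileups from 12 through 18 to 23 reads, over a median background of 3.24 reads. ZNF470 and its divergent neighbour ZNF470-DT share 1 peak, so the 16 members have 15 distinct peaks. Of the 345 normoxia peaks in the stretch, 96 had 23 reads or fewer, and the lowest had 10. Reads are not corrected for depth. Genes marked in both lists at a start had a median ratio of hypoxia to normoxia reads of 1.43. Equal read counts in the 2 libraries are therefore not like for like. The normoxia signal under these 16 starts is not given in the lists, so how far it lay below the calling threshold is not known.

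ZNF583 was the only member of the 16 with a strong peak, of 23 reads and a fold of 5.65 (−log10 q-value 10.6), 12 bp from a listed start. ZNF671 followed with a fold of 5.19 and 21 reads. ZNF415 had a fold of 4.95 and ZNF347 one of 4.73, each with 20 reads. The next group was close behind in reads but not tall. ZNF71 and ZSCAN18 both had a fold of 4.48 and ZNF582 had 4.41, with 18 reads each. ZNF667 had a fold of 3.85 with 19 reads, and ZNF154 one of 3.81 with 22 reads. The lowest were ZNF880 (3.54), ZNF329 (3.40), ZNF528 and ZNF578 (3.30 each), ZNF835 (3.08) and ZNF470 with ZNF470-DT (3.07). The promoters of ZNF582 and ZNF671 are known methylation markers of cervical cancer, and those of ZNF154 and ZSCAN18 are also known to be methylated in tumours. DNA methylation was not analysed here.

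Part of this count moved with the length of the lists. When the hypoxia list was limited to its strongest peaks, as many as the normoxia list holds, 9 of the 16 members remained: ZNF415, ZNF347, ZNF582, ZNF583, ZNF667, ZNF71, ZNF154, ZNF671 and ZSCAN18. That is 9.47% of the 95 members (4.42 to 17.2%), against 4.81% of all genes at the same list length. With the strong threshold applied to both lists, 3 members had a start peak in hypoxia only (3.16%), a share not counted over all genes. Of the 16, ZNF583 alone remained. The other 2, ZNF577 and ZNF587B, were not among the 16 and came in because their normoxia peak was weak. At gene ends and equal list lengths, 14 members (12.8%; 7.20 to 20.6%) were marked in hypoxia only, against 5.69% of all genes. With the strong threshold the gene-end order turned, with 2.75% of members (0.571 to 7.83%) and 6.91% of all genes marked in hypoxia only, a share that the interval of the members includes.

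The other 8 gene-end marks of hypoxia alone fell into 2 kinds. ZNF665 (fold 3.77), ZNF471 (4.01) and ZSCAN5C (3.07) have no listed start, and ZSCAN5B (3.63) had its peak at a span end away from its listed starts. ZNF444 (2.54), ZSCAN5A (5.42), ZNF749 (4.01) and ZNF550 (3.54) had a weak hypoxia peak at a span end but a strong peak in both lists at a listed start inside the span. ZNF444 and ZSCAN5A encode SCAN domain proteins, a domain through which such proteins pair.

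Members without a gene-end peak had a marked start inside the span, no listed start, or listed starts without a peak. No gene-end peak of either list was found for ZNF610, ZNF534, ZNF600, ZNF320, ZNF677, ZNF331, ZFP28, ZNF814, ZSCAN1, ZNF135, ZNF324B and ZNF132. Of these, ZNF320, ZNF331, ZNF814 and ZNF324B were marked in both lists at a listed start inside the span. At listed starts, the 7 members with no peak in either list were ZNF534, ZNF677, ZSCAN5B, ZSCAN1, ZNF135, ZNF132 and ZSCAN4. ZSCAN4, a gene known for its burst of expression in the early embryo, did have span-end peaks, with a fold of 6.44 in normoxia and 6.94 in hypoxia. Its start window held 2 CpG, the fewest of any member window.

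Members without a normoxia peak mostly stood next to each other. Such runs were not counted for other genes, and whether they exceed a random order was not tested. Leaving aside those marked at a start inside the span, 28 members had no normoxia peak at a span end or a listed start, and 26 of them lay in runs of 2 or more consecutive members. The longest run held 9 members, from ZNF582 to ZNF835 (chr19:56382751-56671757), namely ZNF582, ZNF583, ZNF667, ZNF471, ZFP28, ZNF470-DT, ZNF470, ZNF71 and ZNF835. Hypoxia peaks were present at 8 of these 9, the exception being ZFP28. The next run, from ZNF610 to ZNF578 (chr19:52330221-52516882), held 5 members, of which ZNF880, ZNF528 and ZNF578 had a hypoxia peak. Runs of 4 ran from ZNF415 to ZNF677, with hypoxia peaks at 3, and from ZSCAN1 to ZNF329, with hypoxia peaks at 2. ZSCAN5B with ZSCAN5C and ZNF154 with ZNF671 made up pairs, all 4 with a hypoxia peak, and ZNF600 and ZNF132 stood alone with none. At gene ends, 66.7% of the 36 members without a normoxia peak had a hypoxia peak (49.0 to 81.4%), against 39.6% of all such genes. The share was 49.0% (34.8 to 63.4%) for zinc finger genes elsewhere on chromosome 19 and 56.5% (41.1 to 71.1%) for those of other chromosomes. It was 36.8% (25.4 to 49.3%) for other genes of the stretch. Each of these intervals overlaps that of the members. With the strong threshold on both lists, gene-end marks of hypoxia alone were found in 2.75% of members, against 6.91% of all genes.

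Median CpG content differed little between marked and unmarked starts of members, whereas it differed widely over all genes. In start windows of members, the median number of CpG was 23 where both lists had a peak (89 windows), 27 where hypoxia alone had one (20 windows) and 25 where neither did (10 windows). The 10 unmarked windows come from 7 members, and windows of the same member can overlap. Over all genes the medians were 26, 10 and 4. For zinc finger genes elsewhere on chromosome 19 they were 19, 15 and 13, and for those of other chromosomes 26, 16 and 4. The other genes of the same stretch had medians of 27, 9 and 7. The spread within the members was wide, from 3 to 40 CpG where both lists had a peak, from 4 to 42 in the hypoxia-only windows and from 2 to 42 in the unmarked ones. The window of ZNF667, with a hypoxia peak only, and that of ZSCAN1, with no peak, each held 42 CpG, the most among member windows.

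**Figure D3:**
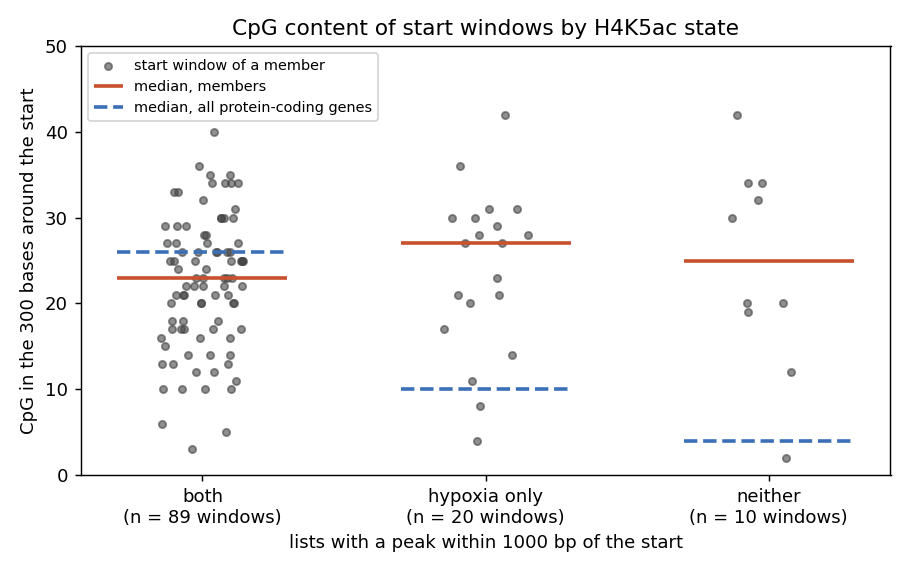
Number of CpG dinucleotides in the 300 bases around each of 119 listed starts of members, split by the lists with a peak within 1000 bp (points are windows, solid lines the median of members, dashed lines the median of all protein-coding genes). Member medians were 23, 27 and 25 in the 3 states, while those of all genes fell from 26 through 10 to 4.

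Short motifs were searched on both strands of the same windows. CCGGAAG, the core bound by ETS factors, was found in 62 of the 119 member windows (52.1%), against 12.8% of the windows of all genes and 30.5% of those of zinc finger genes elsewhere on chromosome 19. It was in 57.3% of member windows with a peak in both lists, 7 of the 20 hypoxia-only windows and 4 of the 10 unmarked ones. GGGCGG, the GC box, was in 67.2% of member windows and 56.3% of all. ACGTG, the core of the hypoxia response element, was in 27.7% of member windows and 23.1% of all. In the hypoxia-only windows of members ACGTG was in 5 of 20. TGACGTCA, which contains ACGT but not ACGTG, was in 3.36% and 2.26%, and TATAAA in 2.52% and 9.46%. TATAAA was in 2.99% of zinc finger windows elsewhere on chromosome 19 and in 4.88% of those of other chromosomes. CCGGAAG was in 29.3% of the windows of zinc finger genes of other chromosomes. Members arose by duplication, so their windows are related in sequence. Windows of the same member can overlap, and the readthrough genes ZNF816-ZNF321P and ZNF765-ZNF761 repeat the windows of ZNF816 and ZNF765. A match describes the letters and is not a binding site.

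Most members marked in both lists had more reads at the start peak in the hypoxia library, with a median ratio near that of all genes. The ratio of hypoxia to normoxia pileup at the 72 starts ran from 0.810 through a median of 1.38 to 2.41, and it was above 1 for 62 members (86.1%), against 92.2% of all genes marked in both lists. Over the 11337 genes marked in both lists the median was 1.43, with quartiles of 1.23 and 1.66. The start peak of highest fold was taken in each list, so the 2 pileups can come from different peaks, as in ZNF581. The ratio is not corrected for depth, and the background at the peaks used had a median ratio of 1.11 for members and 1.07 for all genes. The exact counting interval of the ratio lay above 1 for 37 members and below 1 for 0, which was not counted over all genes.

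The highest ratio was that of ZNF577, at 2.41 (1.34 to 4.53), from 17 to 41 reads. ZNF784 had 54 and 107 reads, a ratio of 1.98 (1.42 to 2.80). ZNF544 had 76 and 146 reads, a ratio of 1.92 (1.45 to 2.57). At the other end were 10 members with fewer reads in hypoxia. ZNF615 had 142 and 115 reads, a ratio of 0.810 (0.628 to 1.04). ZNF749 had 118 and 96 reads, a ratio of 0.814 (0.615 to 1.07). Both of these intervals include 1.

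The members on either side of the widest gap had different ratios. That gap of 1896348 bp, between ZNF331 and ZNF628, was used as a divide after the values had been seen, so the split is a description. On its centromeric side lie 41 members (ZNF175 to ZNF331), and 27 of them have a start peak in both lists. Their median ratio was 1.13 (0.810 to 2.41), with 6 of the 27 above the median of all genes and 7 with an interval above 1. On the telomeric side lie 68 members (ZNF628 to ZNF446), 45 of them with a ratio. Their median was 1.51 (0.814 to 1.98), with 27 of the 45 above the median of all genes and 30 with an interval above 1. Background ratios at these peaks were 1.09 and 1.13. The other genes within the spans of these 2 groups were few, 2 with a median of 1.68 and 7 with a median of 1.40.

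**Figure D4:**
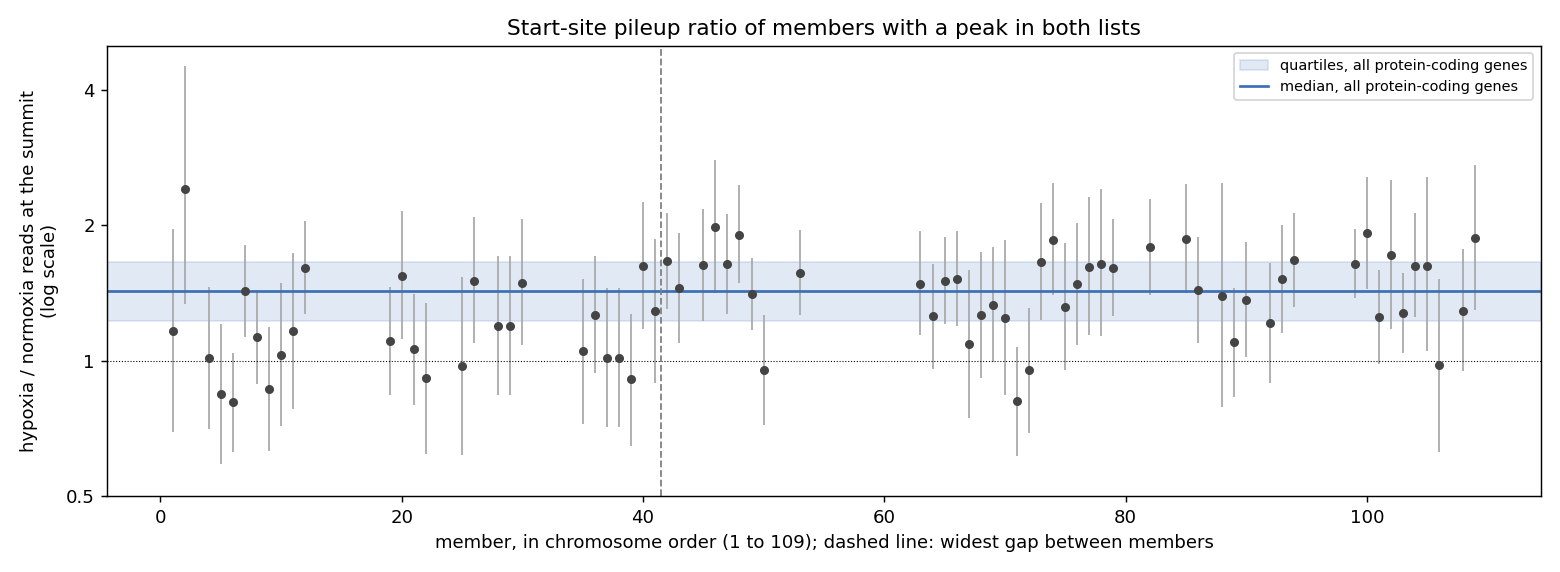
Ratio of hypoxia to normoxia reads at the start-peak summit (log scale) for the 72 members marked in both lists, in chromosome order, with exact 95% counting intervals as bars, and the median and quartiles of all protein-coding genes as a line and band. Medians were 1.13 for the 27 members before the dashed gap and 1.51 for the 45 after it, with the all-gene median at 1.43.

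Away from the span ends, members had few normoxia peaks and many more, mostly weak, in hypoxia. An interior peak lay wholly within the span and beyond 1000 bp of both ends. In normoxia 22 members had one (20.2%; 13.1 to 28.9%), against 53.2% of all genes. In hypoxia 67 had one (61.5%; 51.7 to 70.6%), against 67.5% of all genes. For 45 members (41.3%) there was an interior peak in hypoxia and none in normoxia, against 15.8% of all genes, and the reverse held for 0 members. That share was 31.0% (23.2 to 39.7%) in the other genes of the same stretch, whose interval overlaps that of the members (31.9 to 51.1%). It was 24.2% in zinc finger genes elsewhere on chromosome 19 and 21.9% in those of other chromosomes. Per 100 kb of interior, members had 2.36 peaks in normoxia and 8.06 in hypoxia, against 4.41 and 10.1 over all genes. Zinc finger genes elsewhere on chromosome 19 had lower densities, of 1.28 and 4.02. Longer genes have more interior, and the median span was 19493 bp for members and 24170.5 bp for all genes. The difference between the lists rested on weak peaks. With the hypoxia list limited to the length of the normoxia list, 29 members (26.6%; 18.6 to 35.9%) had an interior hypoxia peak, and 11 (10.1%; 5.15 to 17.3%) had one in hypoxia and none in normoxia, against 6.70% of all genes. With the strong threshold the same number of members, 16 (14.7%), had an interior peak in each list, against 24.4% of all genes in normoxia and 34.0% in hypoxia, and 0 members had one in hypoxia alone, against 11.1% of all genes.

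The strong interior peaks of members lay mostly at starts inside the span. Interior peaks near listed starts were not counted over other genes, so this is not shown to be particular to members. For the 95 members with a known strand there were 54 interior peaks in normoxia and 167 in hypoxia. Of the normoxia peaks, 26 (48.1%) lay within 1000 bp of a listed start, a zone that makes up 3.17% of the interior, and 19 of the 26 were strong. In hypoxia 30 (18.0%) lay there, 20 of them strong. The rest of the interior outside the 3′ zone held 19 peaks in normoxia (7 strong) and 110 in hypoxia (9 strong). The larger hypoxia count was thus mostly of weak peaks away from listed starts.

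The finger exon is usually the last one, and exons were not used here, so the last 5000 bp before the 3′ end (without the 1000 bp next to it) stood in for it. Outside the start zones it held 9 normoxia peaks, assigned to 7 members, and 27 hypoxia peaks, assigned to 21 members. Per 100 kb that is 2.50 and 7.49, against 1.19 and 6.91 in the rest of the interior. The hypoxia densities were close, and the normoxia density rests on 9 peaks, 3 of them in ZNF787. Counting peaks at listed starts too, members had 3.22 peaks per 100 kb of this zone in normoxia and 8.06 in hypoxia, against 2.45 and 8.21 in the remainder of the interior. Over all genes the densities were 4.12 and 11.1 in the zone and 4.36 and 9.86 outside it. Zinc finger genes elsewhere on chromosome 19 had lower densities there, of 0.763 and 1.72.

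The peaks of the 3′ zone were low. Their folds lay between 2.66 and 4.48 in normoxia and between 2.18 and 4.16 in hypoxia, and ZNF787 alone had strong ones, 2 in normoxia and 1 in hypoxia. The peak of ZNF787 at chr19:56092040-56092482 had a fold of 4.16 in hypoxia and its normoxia counterpart one of 4.48. Of the 27 hypoxia peaks in the zone, 5 overlapped a normoxia peak. Peaks without a normoxia counterpart included that of ZNF160 (fold 4.01), the 2 of ZNF264 (3.95 and 2.42), and those of ZNF587B (3.88) and ZNF587 (3.70). ZNF274 had 2, with folds of 3.12 and 3.23. ZSCAN18, whose start was marked in hypoxia only, also had 2, with folds of 3.14 and 2.52.

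**Figure D5:**
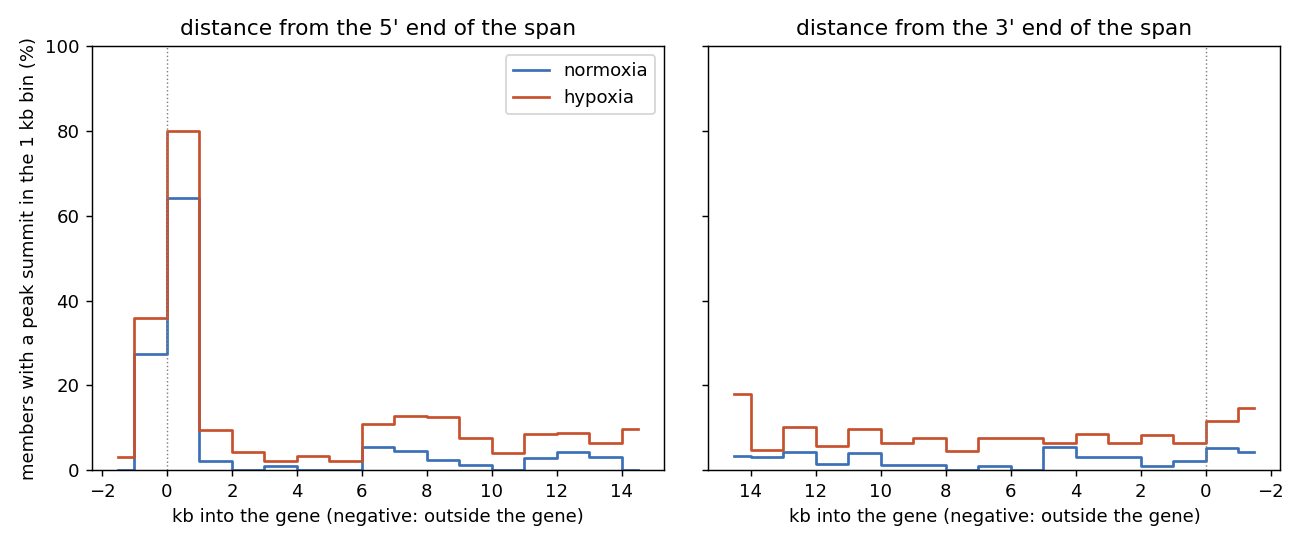
Percentage of the 95 stranded members with a peak summit in each 1 kb bin, by distance from the 5′ end (left) and the 3′ end (right) of the span, for normoxia and hypoxia; bins count only members long enough to reach them. The first bin inside the 5′ end holds a summit in 64.2% of members in normoxia and 80.0% in hypoxia, while bins in the last 5 kb stay at 5.43% or below in normoxia and 8.60% or below in hypoxia.

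Tall interior peaks away from listed starts were found in a few members. ZNF331, an imprinted gene with several promoters, had the most interior peaks, 10 in normoxia and 12 in hypoxia, 6 of them strong in each. Its tallest, at chr19:53545353-53546026, lay 8259 bp from the nearest listed start and had a fold of 10.0 in hypoxia and 6.18 in normoxia. ZSCAN5A, with a span of 146976 bp, had 3 and 12 interior peaks. Its peak at chr19:56252382-56253099 had a fold of 12.3 in hypoxia and 8.24 in normoxia, far from any listed start. ZSCAN4 had an interior peak at chr19:57664170-57665062 with a fold of 9.68 in hypoxia and 5.42 in normoxia. These tall peaks were present in both lists.

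Other members with many interior peaks were mainly richer in weak hypoxia peaks. ZNF83 had 5 in normoxia and 9 in hypoxia, ZNF264 had 2 and 9, and ZNF600 had 2 and 7. ZNF611 and ZNF787 each had 4 and 6, ZNF765-ZNF761 had 2 and 6, ZNF444 had 3 and 4, and ZNF274 had 2 and 5. The only strong interior peak without a peak of the other list lay in ZNF816-ZNF321P at chr19:52942790-52943160, with a fold of 4.31 in hypoxia. It begins just past a taller peak, at chr19:52942033-52942659, that both lists share. The median peak width was 356 bp in the normoxia list and 294 bp in the hypoxia list, and its part in such calls was not tested.

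Interior hypoxia peaks were also found in members without a normoxia start peak. Of the 16 members with a hypoxia-only start, 0 had an interior peak in normoxia and 12 had one in hypoxia, 22 peaks in all. These 22 include peaks at listed starts inside the spans of ZNF880, ZSCAN18 and ZNF329, which are among the start peaks that defined the group. Near listed starts the absence of a normoxia peak was fixed by that choice. The same counts were not made over all genes. Of the 72 members marked in both lists, 20 had one in normoxia and 44 in hypoxia.

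Peak by peak, the strong H4K5ac of members was shared by both libraries. Of 153 normoxia peaks in member spans and their end windows, 134 (87.6%; 81.3 to 92.4%) overlapped a hypoxia peak by at least 1 bp, against 68.7% of all normoxia peaks. The reverse held for 138 of 325 hypoxia peaks (42.5%; 37.0 to 48.0%), against 32.7% of all. Strong normoxia peaks did so in 101 of 101 cases and strong hypoxia peaks in 110 of 114, or 96.5% (91.3 to 99.0%), against 98.3% and 86.6% over all peaks. In the rest of the same stretch, 86.5% of normoxia peaks, 35.8% of hypoxia peaks and 96.7% of strong hypoxia peaks were overlapped, near the shares of the members. The 4 strong hypoxia peaks without a normoxia peak lay in ZNF808, ZNF816-ZNF321P, ZNF583 and ZNF587B. ZNF808, a repressor of transposable elements needed for pancreas development, had its peak of 43 reads 701 bp from a listed start, beside a start peak found in both lists.

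The hypoxia list held more peaks in member spans, as it did over the genome, but few more strong ones. Its peaks in member spans numbered 2.12 times those of the normoxia list (1.75 to 2.59), close to the 2.15 over all peaks. For strong peaks the ratio was 1.13 (0.856 to 1.49), against 1.63 over all peaks, whose value lies above that interval. In the rest of the same stretch the strong ratio was 1.46 (1.09 to 1.95), an interval that overlaps that of the members.

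The genes that act with KRAB zinc finger proteins were nearly all marked in both lists. Of 22 such regulators, 21 had a gene-end peak in both lists, against 69.3% of all protein-coding genes. UHRF1, a reader of hemimethylated DNA, had none in either, as did 17.9% of all genes. ZNF274, itself a member, is 1 of the 22. SUV39H1 had the lowest folds of the 21, at 2.39 in normoxia and 2.46 in hypoxia. TRIM28, the corepressor itself, had a fold of 4.87 in normoxia and 5.34 in hypoxia. SETDB1 had 8.48 and 9.74, and its cofactor ATF7IP 12.6 and 17.4. ATRX, a chromatin remodeller known to bind the finger exons, had 13.7 and 20.4. MORC2 and TASOR, which act with the HUSH silencing complex, had 7.76 and 11.3, and 11.5 and 13.4. No regulator was marked in 1 list only, against 11.7% of all genes in hypoxia only and 1.08% in normoxia only.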

How the data were processed

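Peaks had been called per sample, since the authors deposited a separate list for each library. Build hg38 and the tools MACS2 and SICER are named per the submitters' processing notes; these give no version, setting or control library. Each deposited peak has an integer score, a fold enrichment, a −log10 p-value and a −log10 q-value, and these are the authors' values. The score was not used. Gene spans and start windows came from RefSeq tables of GRCh38.p14, which is hg38, and members were matched by symbol. The members and gene lists were chosen with earlier results of these data known. Genes were named by rule: those marked in 1 list only, in neither list, with the highest folds, with the most interior peaks or a strong interior peak of 1 list, and ZNF274. Others were chosen after their values were seen.

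Peaks were assigned with Python 3.11.15 and pandas 2.3.3, and intervals computed with SciPy 1.17.1. Pileup and background were solved together from fold, taken as (pileup + 1) / (background + 1), and p, taken as a Poisson tail. Pileups came out whole, within 0.02 on the −log10 p scale, for 100% of normoxia and 99.9992% of hypoxia peaks. The scripts were checked on simulated data. Alternatives covered the q-value threshold, list length, window and zone sizes, lone genes and merged peaks. An item of the marker lists is not reported here. Protein sequences, exons and numbers of fingers were not analysed here.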

Additional observations from a re-analysis of the deposited data

How the results depend on the processing

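With 1 library per condition, neither leaving out a replicate nor a test was possible. No paired analysis was possible because each condition has 1 library. Of 66 alternative values, 49 stayed within the counting interval of the value reported and 17 moved beyond it. No alternative left a member marked in normoxia alone.

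With the strong threshold (−log10 q-value 10 or more) on both lists, the share of members marked in hypoxia only was 2.75% and that marked in neither was 32.1%, against 6.91% and 33.0% of all genes. Interior peaks were then found in 14.7% of members in hypoxia and 14.7% in normoxia, so that the difference between the lists was gone, and the overlap of member peaks was 97.0% of normoxia and 87.7% of hypoxia peaks, since peaks of both lists then had to pass. With the hypoxia list limited to the length of the normoxia list, 12.8% of members were marked in hypoxia only, 20.2% in neither and 26.6% in their interior, against 5.69%, 23.9% and 53.5% of all genes, and 73.4% of hypoxia peaks overlapped. Using listed starts in place of span ends gave 75.8% marked in both lists. With a 3′ zone of 3000 bp its share of interior peaks was 7.41% in normoxia and 8.98% in hypoxia. With 5000 bp the share was 22.2% and 18.0%, and with 8000 bp it was 28.7% in hypoxia. These shares count peaks at listed starts too. Outside the start zones the zone of 5000 bp held 16.7% of interior peaks in normoxia and 16.2% in hypoxia.

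Alternatives chosen after seeing the data combined listed starts with a threshold. At equal list lengths 75.8% were marked in both lists and 9.47% in hypoxia only. With the strong threshold 3.16% were marked in hypoxia only and 23.2% in neither, shares that were not counted over all genes. Window sizes of 500 and 2000 bp, lone genes, merged peaks and a stricter overlap moved no value beyond its interval.

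Most hypoxia-only marks of members rest on 12 to 23 reads, and the lists give no normoxia signal where no peak was called.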
